A study of Mus musculus with 6 samples.

Results

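The genes described here encode 10 inducible transcription factors, the AP-1 proteins FOS, FOSB, FRA-1 (Fosl1), FRA-2 (Fosl2), JUN, JUNB and JUND together with ATF3, EGR1 and MYC. They were taken by symbol from the deposited expression table, and 10 of 10 were found among its 17933 genes. The table holds RNA levels of whole kidney from 6 samples, 3 labelled kidney stone and 3 labelled control, all from wild-type male C57BL/6 mice aged 6 to 8 weeks. Stone mice received glyoxylic acid, a precursor of oxalate, at 120 mg/kg into the peritoneum daily over 12 days, and control mice received saline in the same volume. Both groups were labelled as day 12, and the labels do not say whether each sample was a single mouse or a pool. The question was which of these factors differed between stone and control kidneys, and how far the samples of each group resembled each other.

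AP-1 is a dimer of a FOS-family and a JUN-family protein, or of JUN-family proteins alone, held together by leucine zippers and bound to short DNA elements in promoters and enhancers. ATF3 belongs to the same basic leucine zipper class, EGR1 is a zinc finger protein, and MYC binds DNA as a partner of MAX. Fos, Fosb, Jun, Junb, Atf3 and Egr1 are immediate early genes, which signalling through MAP kinases, calcium and cyclic AMP switches on within minutes from factors already in the cell, and whose unstable mRNAs disappear soon afterwards. FRA-1 and FRA-2 usually follow later, and in the kidney several of these genes are known to be induced after tubule injury.

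The promoters of Fos, Jun and Atf3, which varied together in the samples below, and of Fosl2, which differed between the groups, are shown to place the matches to known regulatory motifs that they hold. Each is the stretch of 150 bases directly before the RefSeq transcript start on GRCm38.p6, on the coding strand, from the 5′ to the 3′ end, with matches to the motifs searched in capitals. Fos lies on the plus strand at chr12:85473740-85473889, Jun on the minus strand at chr4:95052223-95052372, Atf3 on the minus strand at chr1:191183334-191183483 and Fosl2 on the plus strand at chr5:32136322-32136471.
Fos: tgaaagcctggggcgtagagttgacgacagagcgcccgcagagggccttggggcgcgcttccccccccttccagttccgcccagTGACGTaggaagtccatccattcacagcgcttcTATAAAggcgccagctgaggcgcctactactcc
Jun: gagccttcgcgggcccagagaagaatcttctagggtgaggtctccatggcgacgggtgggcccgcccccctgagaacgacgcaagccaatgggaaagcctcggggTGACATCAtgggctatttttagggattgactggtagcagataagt
Atf3: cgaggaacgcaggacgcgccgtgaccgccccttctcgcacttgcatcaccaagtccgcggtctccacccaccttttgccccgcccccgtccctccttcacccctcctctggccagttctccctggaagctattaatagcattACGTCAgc
Fosl2: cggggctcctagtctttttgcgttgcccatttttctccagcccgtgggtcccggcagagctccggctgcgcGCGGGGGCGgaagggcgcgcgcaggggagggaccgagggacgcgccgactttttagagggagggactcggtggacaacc

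The capitals in Fos mark TGACGT, the core of the cyclic AMP response element, at -66 to -61 from the start, and TATAAA, which helps to position the polymerase, at -33 to -28. In Atf3 they mark the same core on the opposite strand, ACGTCA, at -8 to -3. In Jun they mark TGACATCA, the element through which JUN and ATF proteins are known to act on the Jun promoter, at -45 to -38. In Fosl2 they mark GCGGGGGCG, the consensus of EGR proteins, at -79 to -71. Motifs were sought on both strands of the 250 bases before the start, TATAAA on the coding strand only, in all 27025 symbols with a RefSeq promoter. TGACGT was found in 6.56% of them, TGACATCA in 3.02%, GCGGGGGCG in 2.56% and TATAAA in 8.12%. The full response element TGACGTCA, which contains the core TGACGT, and the AP-1 element TGAGTCA were present in 1.62% and 4.43% of promoters and in 0 of the 7 promoters available for these genes. Fosb also carried GCGGGGGCG, at -50 to -42, and the serum response element was sought by its CArG core, found in 1.4% of promoters and 0 of these 7. Elements further upstream than the 250 bases lay outside the search, and Egr1, Fosl1 and Myc had no promoter to search. The count of 0 therefore does not show that the factor genes lack a serum response element. A match describes letters in the reference and not binding.

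Levels are given in FPKM, fragments scaled by the authors for gene length and for a library denominator that the labels do not describe. Fold changes are differences of log2(FPKM + 1), stone over control (a difference on this scale is smaller than the true one for weakly expressed genes). They were tested with limma over the 12319 genes averaging 1 FPKM or more over all 6 samples. A gene averaging less in 1 group entered only through the other group, as Socs3, Egr2, Dusp8 and Ccl2 below did through the stone samples. A gene was called where the Benjamini-Hochberg adjusted p over all tested genes was below 0.05. By this rule 43.5% of tested genes were called higher and 13.9% lower in stone kidneys, 57.4% in all. Of the 10 factor genes 9 could be tested, 2 of them (Fosl2 and Myc) rose and 0 fell, also at an unadjusted limma p below 0.05. The other 7 were not called. The median log2 fold change of the 9 was 0.35, against 0.21 over all tested genes. Stone values lay wholly above the controls for 2 of the 9, Fosl2 and Myc, an arrangement found in 49.8% of tested genes. The label of the tissue was checked first. Proximal tubule genes such as Slc34a1 (1508 to 1947 FPKM in stone and 2381 to 2815 FPKM in control samples) and the thick limb gene Umod (936 to 1713 FPKM in stone and 1524 to 1749 FPKM in control samples) were abundant throughout.

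The sums of FPKM differed between groups, at 609705 to 613885 in stone and 711768 to 758514 in control samples, and Kap alone made up 1.18% to 2.26% of the sum in stone and 19.3% to 23.15% in control samples. FPKM times length in kilobases, for a single fragment, was estimated from short, barely expressed genes. It was 0.0914 to 0.0939 in stone and 0.0947 to 0.0977 in control samples. Only values inside a fixed narrow window, the same for every library, were used. The likeness of the libraries was therefore set in advance and does not compare their depth. Scaling moved the median of all genes from 0.21 as deposited to 0.01 with median-of-ratios factors, -0.03 after quantile normalization and 0.45 with equal FPKM sums. The genes called higher and lower numbered 5356 and 1711 as deposited, 2948 and 3064 with median-of-ratios factors, 2744 and 3138 after quantile normalization, and 8440 and 797 with equal FPKM sums. The direction of a small change therefore depends on the scaling. Adipocyte transcripts, picked out after their values were seen, set stone sample 3 and control sample 2 apart. Adipoq, the adiponectin gene, had 0, 0 and 22.32 FPKM in stone samples 1 to 3 and 0.07, 16.89 and 0 FPKM in control samples 1 to 3. In bulk tissue, fewer cells of a type and less RNA per cell cannot be told apart.

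Fosl2 was the most clearly separated of the tested factor genes. FRA-2, its product, is a FOS-family protein without the strong activation domain of FOS and accumulates in longer-lasting responses. Fosl2 had 13.38, 17.66 and 26.34 FPKM in stone samples 1 to 3, against 2.39, 3.19 and 6.00 FPKM in control samples 1 to 3. The groups did not overlap, and sample 3 was the highest of each. The means were 19.1 ± 6.6 FPKM in stone and 3.86 ± 1.90 FPKM in control kidneys (SD, n = 3 each). Fosl2 rose by 2.07 on the log2 scale, SE 0.312 (limma, adjusted p = 0.00149). Over 18 alternative settings the value stayed between 1.78 and 2.40, with an adjusted limma p of at most 0.0086.

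Myc also rose. MYC drives ribosome production, nucleotide synthesis and entry into the cell cycle. The gene had 16.42, 14.69 and 17.46 FPKM in stone samples 1 to 3, against 1.85, 3.96 and 10.11 FPKM in control samples 1 to 3. The groups did not overlap for Myc either, yet control sample 3 was much closer to the stone samples than control sample 1 was. Within the group, the highest sample exceeded the lowest 1.19-fold in stone and 5.46-fold in control kidneys. Myc rose by 1.67 on the log2 scale, SE 0.432 (limma, adjusted p = 0.0139). It was 1.21 without control sample 1 and 2.19 without control sample 3 (limma, adjusted p = 0.0231 and 0.00112). The weakest of the 18 alternatives, without control sample 2, gave an adjusted limma p of 0.049.

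Fosl1 had values above 0 in the stone samples only. FRA-1, its product, is linked to epithelial injury and wound repair and, like FRA-2, lacks the activation domain of FOS. Fosl1 had 1.27, 1.46 and 1.41 FPKM in stone samples 1 to 3 and was listed at 0 in control samples 1 to 3. Its mean over all samples was below 1 FPKM, so it was not tested, and no fold can be formed against values of 0. From its longest annotated transcript of 1864 bases, the stone values stand for about 26, 29 and 29 fragments, and a single fragment would read about 0.05 FPKM. Without the filter on low values the difference was 1.25 on the log2 scale (limma, adjusted p = 8.16e-05), but a gene at 0 in every control could enter that test only through the stone samples. Part of Fosl1 overlaps Ccdc85b on the opposite strand, and the use of strand in counting is not stated.

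For the classic immediate early genes the control samples differed widely from each other. Fos, whose product is the archetypal partner of JUN, had 15.13, 17.11 and 25.78 FPKM in stone samples 1 to 3, against 0.92, 33.40 and 68.91 FPKM in control samples 1 to 3. Egr1 had 27.99, 39.76 and 41.25 FPKM in stone samples 1 to 3, against 3.02, 42.89 and 136.23 FPKM in control samples 1 to 3. Fosb, whose full-length and shortened isoforms cannot be separated in a value per gene, had 0.81, 1.59 and 1.38 FPKM in stone samples 1 to 3, against 0.10, 5.27 and 24.59 FPKM in control samples 1 to 3. For each of these 3 genes control sample 1 was the lowest and control sample 3 the highest of all 6 samples, with the stone samples in between. The highest control exceeded the lowest 74.9-fold for Fos, 45.1-fold for Egr1 and 246-fold for Fosb, while the highest stone sample exceeded the lowest 1.70-fold, 1.47-fold and 1.96-fold. The low Fosb value of control sample 1 stands for about 4 fragments, so its 246-fold ratio is imprecise, whereas Fos in that sample rests on about 20.

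**Figure D1:**
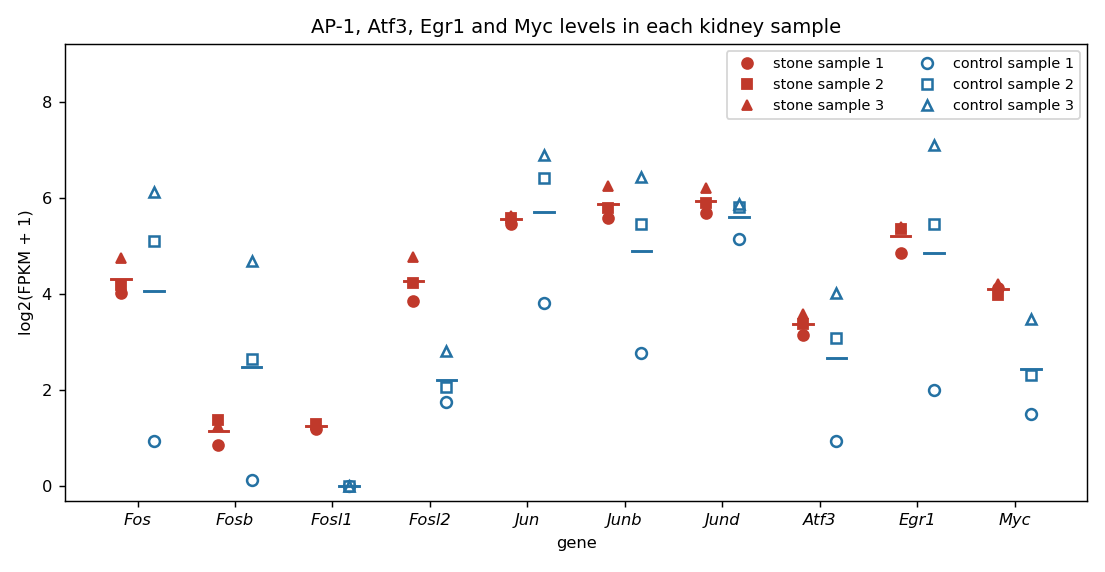
Levels of the 10 factor genes on the log2(FPKM + 1) scale, with stone samples as filled red symbols to the left and control samples as open blue symbols to the right, symbol shape giving the sample number and short lines the group means. Stone samples span less than controls for the 9 tested genes, least clearly for Fosl2, and Fos, Fosb, Jun, Junb, Atf3 and Egr1 run from low in control sample 1 to high in control sample 3, and Fosl1 is at 0 in each control.

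Jun, Junb and Atf3 had the same arrangement with a smaller span. Jun, the main dimer partner of FOS proteins, had 42.73, 46.71 and 48.32 FPKM in stone samples 1 to 3, against 13.00, 83.85 and 117.19 FPKM in control samples 1 to 3. Junb, which often limits the activity of JUN, had 46.64, 54.02 and 75.46 FPKM in stone samples 1 to 3, against 5.88, 42.69 and 85.83 FPKM in control samples 1 to 3. Atf3, a stress-induced factor that mostly represses, had 7.89, 9.35 and 11.08 FPKM in stone samples 1 to 3, against 0.91, 7.45 and 15.28 FPKM in control samples 1 to 3. All 3 stone values of each gene lay inside the range of the controls. Jun overlaps the antisense gene Junos, and Junb overlaps Prdx2 on the opposite strand, so their values carry the same doubt about strand.

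Jund, the JUN-family gene that is expressed steadily in most tissues, spread least among the controls of the 9 tested genes. It had 50.72, 58.63 and 72.73 FPKM in stone samples 1 to 3, against 34.18, 54.73 and 57.42 FPKM in control samples 1 to 3. The groups overlapped, with control sample 1 again lowest, and Jund shares exon sequence with Gm11175 on the opposite strand. Jund was not called, at a log2 fold change of 0.33 and an SE of 0.212 (limma, adjusted p = 0.215). It was called higher with equal FPKM sums, at 0.60, which lifted the typical gene as well (limma, adjusted p = 0.0375), and with the replicate number as a block, at 0.33 (limma, adjusted p = 0.0399), and with weights per sample, given below.

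None of the 6 genes Fos, Fosb, Jun, Junb, Atf3 and Egr1 passed the limma test, at an unadjusted p below 0.05 either. The log2 fold changes were 0.25 for Fos, 0.35 for Egr1, -1.33 for Fosb, -0.15 for Jun (0.12 with equal FPKM sums), 0.98 for Junb and 0.69 for Atf3. The SE was 1.19 for Fos, 1.13 for Egr1, 0.988 for Fosb, 0.715 for Jun, 0.828 for Junb and 0.690 for Atf3, against 0.212 for Jund. The adjusted limma p of these 6 genes was 0.279 or more. For Fos and Egr1 the sign depended on the scale: arithmetic means were 19.3 ± 5.66 FPKM in stone and 34.4 ± 34.0 FPKM in control kidneys for Fos, and 36.3 ± 7.26 FPKM in stone and 60.7 ± 68.4 FPKM in control kidneys for Egr1 (SD, n = 3 each), lower in stone, while the log2 difference was above 0.

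The values of these genes depended on which control samples were included. Without control sample 1, Fos, Fosb and Jun were called lower in stone kidneys, at -1.30, -2.50 and -1.10 (limma, adjusted p = 0.0224, 0.0136 and 0.00272). Egr1, Atf3 and Junb then stood at -1.08, -0.18 and -0.07 and were not called (limma, adjusted p = 0.0972, 0.62 and 0.861). Without control sample 3, Fos, Egr1, Atf3, Junb and Jun were at 1.29, 1.47, 1.37, 1.76 and 0.44 and Fosb at -0.23, and none was called (limma, adjusted p of 0.0872 or more). With a weight for each sample estimated from all genes, control sample 1 weighed 4.19 and control samples 2 and 3 weighed 0.493 and 0.443. In that fit 6 factor genes were called higher, Junb at 2.49, Egr1 at 2.51, Atf3 at 1.98 and Jund at 0.67 besides Fosl2 and Myc (limma, adjusted p of 0.0458 or less). Fos, at 2.48, was not (limma, adjusted p = 0.0632).

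**Figure D2:**
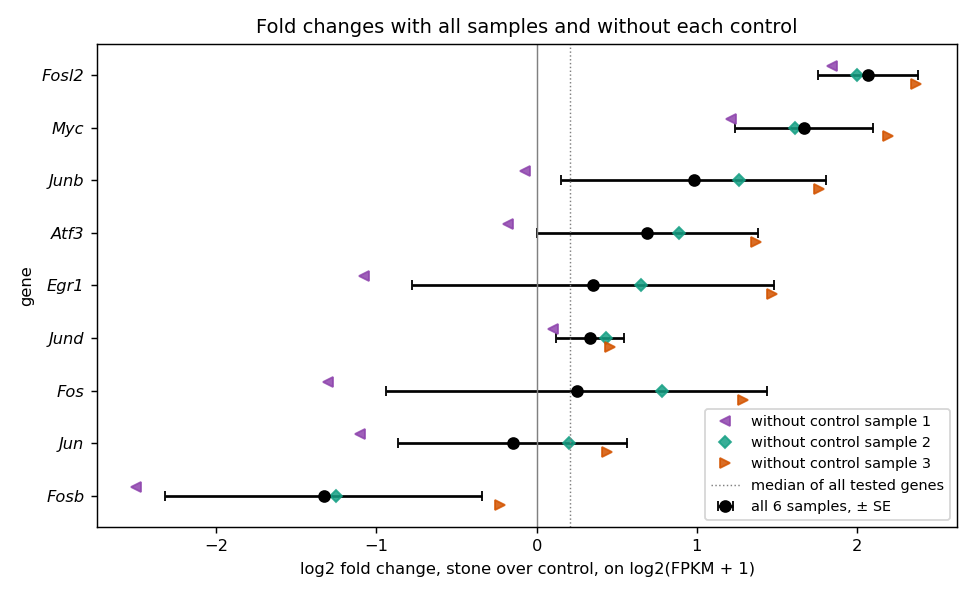
Log2 fold change of the 9 tested factor genes, stone over control on log2(FPKM + 1), with all 6 samples (black, bars are ± SE) and without each control sample in turn (coloured symbols). Fosl2 and Myc stay above 1 in each case, whereas Fos moves from -1.30 without control sample 1 to 1.29 without control sample 3, and Jun from -1.10 to 0.44.

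The spread among controls was rare in this table. On the log2 scale the range over the 3 controls was 5.19 for Fos, 5.09 for Egr1, 4.54 for Fosb, 3.66 for Junb, 3.09 for Atf3 and 3.08 for Jun, against a median of 0.21 over all tested genes. A control range of at least 3 was reached by 24 of 12319 genes (0.195%), and 6 of the 24 were these factor genes. Another 4 were immediate early genes of the list described below, Nr4a1, Btg2, Ccn1 and Dusp1. These 10 were highest in control sample 3. Of the remaining 14, 13 were highest in control sample 2, among them Adipoq and the heat shock gene Hspa1a, and 1, the chemokine gene Cxcl1, in control sample 3; these genes are named after their values were seen. The stone range was 0.73 for Fos, 0.68 for Junb, 0.54 for Egr1, 0.52 for Fosb, 0.44 for Atf3 and 0.17 for Jun, against a median of 0.18 over all tested genes, so that all but Jun also spread more than the typical gene among stone samples. For all 9 tested factor genes the controls spanned more than the stone samples, as they did for 55.7% of tested genes. None of the 9 reached a stone range of 1 or of 2, which 2.99% and 0.836% of tested genes did.

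**Figure D3:**
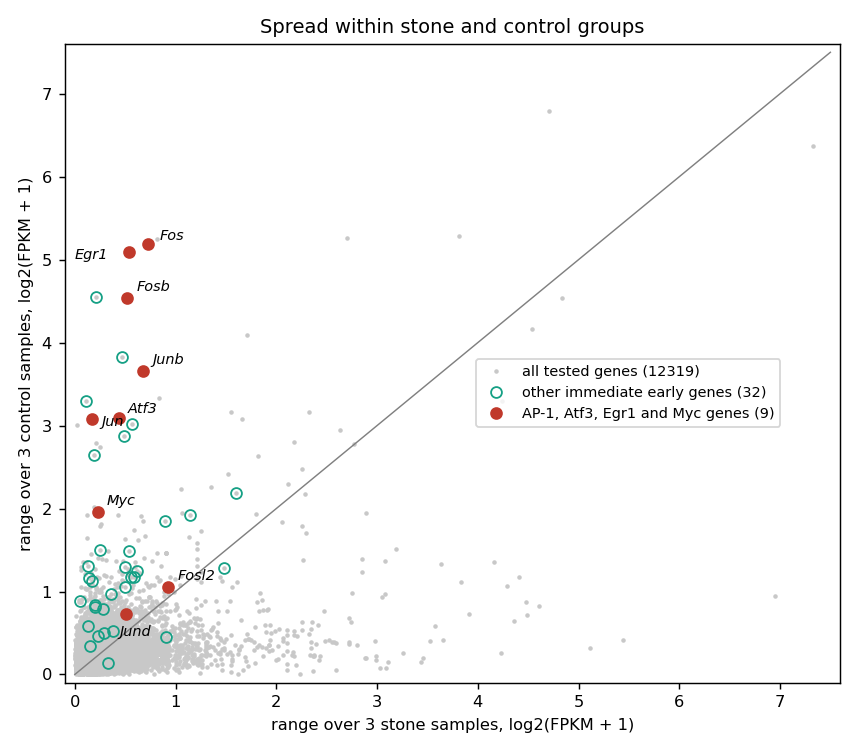
Range of log2(FPKM + 1) over the 3 stone samples (horizontal) against the 3 control samples (vertical) for all 12319 tested genes in grey, with the 9 tested factor genes in red and 32 other immediate early genes as green circles, and the diagonal marking equal ranges. Fos, Egr1, Fosb, Junb, Atf3 and Jun lie at control ranges of 3 to 5.19 with stone ranges below 1.

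The order of the controls was shared by the whole set. All 9 tested factor genes were lowest in control sample 1 and highest in control sample 3, an arrangement found in 14.4% of tested genes. In stone kidneys 7 of the 9 were lowest in sample 1 and highest in sample 3, against 29.0% of tested genes. Stone values lay wholly inside the control range for 6 of 9, against 6.69% of tested genes. Fos, Fosb, Jun, Junb, Atf3 and Egr1 were set together for their control range of at least 3, which by itself favours like patterns. Their values come from the same 6 libraries, with the 3 controls carrying most of the spread. Deviations from the group means correlated with r between 0.948 and 0.998 in their 15 pairs. By the same measure Fosl2 tracked Fos less closely (r = 0.718) and Myc more closely (r = 0.899).

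Levels per length can be ordered in stone kidneys but not in controls as a group. In stone kidneys Jund averaged 60.7 FPKM, Junb 58.7, Jun 45.9, Egr1 36.3, Fos 19.3, Fosl2 19.1, Myc 16.2, Atf3 9.44, Fosl1 1.38 and Fosb 1.26 FPKM. Neighbours whose samples overlapped in that order were Jund, Junb and Jun, then Fos, Fosl2 and Myc, and at the low end Fosl1 and Fosb. In control sample 1 Jund led at 34.18 FPKM and Jun followed at 13.00, with Egr1 at 3.02 and Fos at 0.92 FPKM. In control sample 3 Egr1 led at 136.23 FPKM, followed by Jun at 117.19, Junb at 85.83 and Fos at 68.91, ahead of Jund at 57.42 FPKM. In stone kidneys Fos and Fosl2 were thus expressed at like levels, while in control sample 3 Fos stood far above Fosl2, at 68.91 against 6.00 FPKM.

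Other immediate early genes divided along the same line. Of 38 measured genes of this list 32 were tested, 19 rose and 0 fell (21 and 0 at an unadjusted limma p below 0.05), with a median log2 fold change of 0.93. Over all tested genes 43.5% were called higher and 13.9% lower. Of these 32 genes 30 were lowest in control sample 1 and highest in control sample 3, against 14.4% of all tested genes. All stone values lay inside the control range for 9 of the 32, against 6.69% of all tested genes. Nr4a1 and Dusp1 were picked out after their values were seen. Nr4a1, an orphan nuclear receptor gene, had 34.36, 36.50 and 39.93 FPKM in stone samples 1 to 3, against 2.19, 33.09 and 73.78 FPKM in control samples 1 to 3. Dusp1, which encodes a MAP kinase phosphatase, had 54.53, 58.23 and 81.22 FPKM in stone samples 1 to 3, against 20.73, 91.86 and 175.54 FPKM in control samples 1 to 3. Neither was called (limma, adjusted p = 0.466 and 0.882), and the stone values of both lay within the control range.

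A second set of these genes rose with separate groups. Socs3, the feedback inhibitor of cytokine signalling, had 22.62, 27.28 and 43.40 FPKM in stone samples 1 to 3, against 0.49, 0.66 and 1.04 FPKM in control samples 1 to 3, a log2 fold change of 4.17 (limma, adjusted p = 3.11e-05). Maff, a small MAF factor without an activation domain, had 10.35, 10.16 and 11.41 FPKM in stone samples 1 to 3, against 2.10, 2.45 and 2.93 FPKM in control samples 1 to 3 (log2 fold change 1.74, limma adjusted p = 4.07e-05). Egr2, the closest relative of Egr1 in the list and picked out after its values were seen, had 4.42, 7.34 and 7.08 FPKM in stone samples 1 to 3, against 0.15, 0.55 and 1.73 FPKM in control samples 1 to 3. Egr2 rose by 2.08 (limma, adjusted p = 0.00167), while Egr1 did not pass, and the difference between both changes was not tested. The map of immediate early genes by sample shows both sets.

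**Figure D4:**
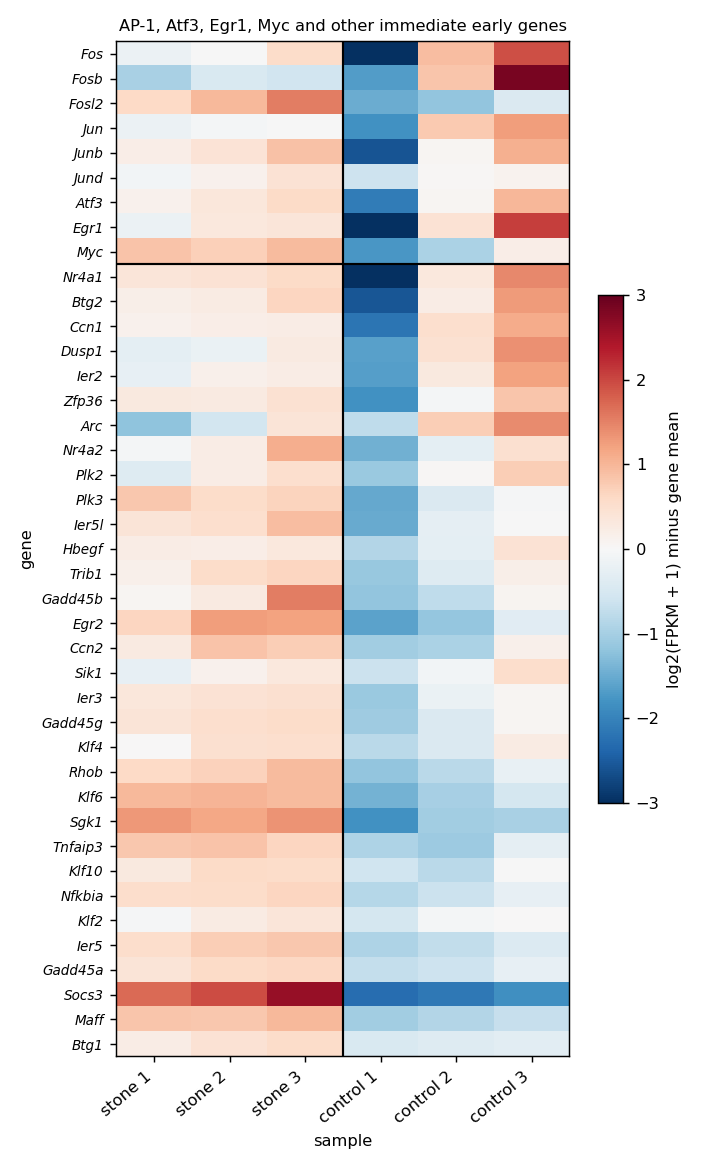
Log2(FPKM + 1) minus the gene's mean over 6 samples, for the 9 tested factor genes above the line and 32 other immediate early genes below it in falling order of control range, with stone samples left and control samples right and colours capped at 3. Control sample 1 is the lowest control for all 9 factor genes and control sample 3 the highest, and for Fos, Fosb, Jun, Junb, Atf3 and Egr1 control sample 3 is above every stone sample.

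Partner and related leucine zipper factors mostly rose by small amounts. Of 29 tested genes 22 rose and 2 fell, against 43.5% and 13.9% of all tested genes, with a median of 0.40. Creb1, which encodes the activator at cyclic AMP response elements, had 8.31 ± 0.307 FPKM in stone and 4.56 ± 0.291 FPKM in control kidneys (SD, n = 3 each; limma, adjusted p = 0.000298). The genes that fell, Dbp and Tef, encode related factors of the circadian output. Dbp had 29.07, 26.74 and 29.89 FPKM in stone samples 1 to 3, against 67.18, 83.06 and 86.36 FPKM in control samples 1 to 3 (log2 fold change -1.43, limma adjusted p = 7.57e-05), and Tef fell by 0.52 (limma, adjusted p = 0.0017). Cebpd, a cytokine-induced factor gene picked out after its values were seen, had 36.0 ± 4.24 FPKM in stone and 6.36 ± 3.44 FPKM in control kidneys (SD, n = 3 each; limma, adjusted p = 0.00106).

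Genes upstream of the factors changed in both directions. Of 28 tested MAP kinase genes 16 rose and 2 fell, against 43.5% and 13.9% of all tested genes. Their median of 0.29 was close to the 0.21 of all genes. Map3k1, a kinase that feeds the JUN kinases, had 18.5 ± 2.23 FPKM in stone and 5.89 ± 1.09 FPKM in control kidneys, and Mapkapk2, a kinase below p38, had 62.0 ± 3.22 FPKM in stone and 39.8 ± 0.968 FPKM in control kidneys (SD, n = 3 each). Both were called (limma, adjusted p = 0.000173 and 0.00025). Map2k6, a kinase that activates p38, and Braf fell by 0.71 and 0.31 (limma, adjusted p = 0.0019 and 0.0212). Map2k3, another kinase that activates p38 and named after its values were seen, rose by 0.33 (limma, adjusted p = 0.00511). The call of Braf was lost with equal FPKM sums, where Braf was at -0.07, and without stone sample 1, stone sample 3, control sample 1 or control sample 3.

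Of 17 tested MAP kinase phosphatases and feedback inhibitors 10 rose and 1 fell, with a median of 0.45. The shares called higher and lower over all tested genes were 43.5% and 13.9%. Dusp8 and Dusp14 rose by 1.76 and 1.26 (limma, adjusted p = 0.000105 and 0.000141), and Dusp9 fell by 0.79 (limma, adjusted p = 0.00157). Among SRF, its cofactors and the EGR co-repressors 6 of 8 tested genes rose and 0 fell (6 and 0 at an unadjusted limma p below 0.05), with a median of 0.36. The actin-regulated SRF cofactor genes Mrtfa and Mrtfb rose by 0.91 and 0.67 (limma, adjusted p = 0.000268 and 0.00158). Of 8 genes for proteins that act on AU-rich mRNAs, such as those of Fos and Myc, 5 rose and 1 fell, with a median of 0.41. Not all of these proteins shorten the life of such mRNAs. Elavl1, named after its values were seen and among the 5 that rose (limma, adjusted p = 0.0347), encodes a protein known to stabilize them. Khsrp and Tia1 rose by 0.57 and 0.75, and Auh, which also encodes a mitochondrial enzyme, fell by 0.52 (limma, adjusted p = 0.00133, 0.00194 and 0.0011).

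Signalling through the EGF receptor is a strong inducer of immediate early genes. The 11 tested genes encode ligands of the wider EGF family, members of the EGF receptor family and the proteases ADAM10 and ADAM17. Their median was 0.48, and 5 rose and 2 fell. These shares were close to the 43.5% and 13.9% of all tested genes. Adam10 and Adam17, named after their values were seen, were among the 5 that rose (limma, adjusted p = 0.0028 and 0.000703). Egf had 63.34, 79.39 and 67.08 FPKM in stone samples 1 to 3, against 408.42, 343.05 and 442.96 FPKM in control samples 1 to 3 (log2 fold change -2.49, limma adjusted p = 1.66e-05). Nrg1, the neuregulin ligand gene, had 20.6 ± 1.66 FPKM in stone and 3.48 ± 0.318 FPKM in control kidneys, and Egfr had 29.7 ± 0.949 FPKM in stone and 12.7 ± 1.11 FPKM in control kidneys (SD, n = 3 each). Both rose (limma, adjusted p = 1.3e-05 and 5.08e-05), and Erbb3 fell by 0.43 (limma, adjusted p = 0.00647), a call lost with equal FPKM sums at -0.16 (limma, adjusted p = 0.208).

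Genes known as AP-1 targets were higher in stone kidneys in nearly every tested case. Of 18 tested genes 17 rose and 0 fell (17 and 0 at an unadjusted limma p below 0.05), with a median of 1.8. Over all tested genes 43.5% were called higher and 13.9% lower, with a median of 0.21. The list was chosen with earlier results of these data known. Timp1, Ccl2, Cd44, Lif and Itgax averaged 0.0967 to 0.677 FPKM in controls and entered the test only through the stone samples. The share that rose and the median are thus partly set by the filter. Timp1, Cd44, Lif and Itgax are named after their values were seen. Spp1, the osteopontin gene, had 7976, 8209 and 7298 FPKM in stone samples 1 to 3, against 509, 616 and 544 FPKM in control samples 1 to 3. Ccl2, a monocyte attractant gene, had 15.9 ± 3.13 FPKM in stone and 0.677 ± 0.136 FPKM in control kidneys (SD, n = 3 each). Spp1 and Ccl2 rose by 3.81 and 3.32 (limma, adjusted p = 5.81e-06 and 1.42e-05), and the exception, Il1b, named after its values were seen, was at 0.08 (limma, adjusted p = 0.894). Many of these genes also answer to other factors and mark injured tubule or immune cells.

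Around Myc, 8 of 14 tested network partners rose and 1 fell, with a median of 0.37. Of all tested genes 43.5% rose and 13.9% fell. Mlxip rose by 0.66 (limma, adjusted p = 0.00174), and Mxd4, a MAX partner that opposes MYC, by 0.28 (limma, adjusted p = 0.00405, but 0.46 after median-of-ratios scaling). Mlx, the partner of MLXIP, fell by 0.25 (limma, adjusted p = 0.0161), a call lost without stone sample 3, and with equal FPKM sums it stood at 0.02. Of 33 tested genes known as MYC targets 22 rose and 7 fell, with a median of 0.57. Cdk4, a kinase of cell cycle entry, had 92.0 ± 4.03 FPKM in stone and 51.7 ± 1.69 FPKM in control kidneys, and Npm1, a nucleolar protein gene, had 246 ± 8.05 FPKM in stone and 141 ± 8.58 FPKM in control kidneys (SD, n = 3 each). Against the rest, Odc1, which encodes the first enzyme of polyamine synthesis, had 212 ± 25.4 FPKM in stone and 764 ± 121 FPKM in control kidneys, and the mitochondrial serine enzyme gene Shmt2 fell by 1.15 (limma, adjusted p = 8.25e-05 and 5.42e-05).

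In the stress list around Atf3, 10 of 17 tested genes rose and 0 fell (12 and 1 at an unadjusted limma p below 0.05), with a median of 0.45. Among all tested genes 43.5% were called higher and 13.9% lower. Cdkn1a, the p21 cell cycle inhibitor gene, had 28.81, 37.84 and 37.58 FPKM in stone samples 1 to 3, against 3.17, 3.20 and 3.98 FPKM in control samples 1 to 3 (log2 fold change 3.00, limma adjusted p = 1.42e-05), and Trp53 rose by 0.73 (limma, adjusted p = 0.000268). The heat shock gene Hspa1a, picked out after its values were seen, had 11.50, 12.50 and 21.34 FPKM in stone samples 1 to 3, against 12.52, 135.03 and 111.19 FPKM in control samples 1 to 3, and was not called (limma, adjusted p = 0.0797). Like Fos it was low in control sample 1, but it was highest in control sample 2, and its stone values stayed near the low control.

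**Figure D5:**
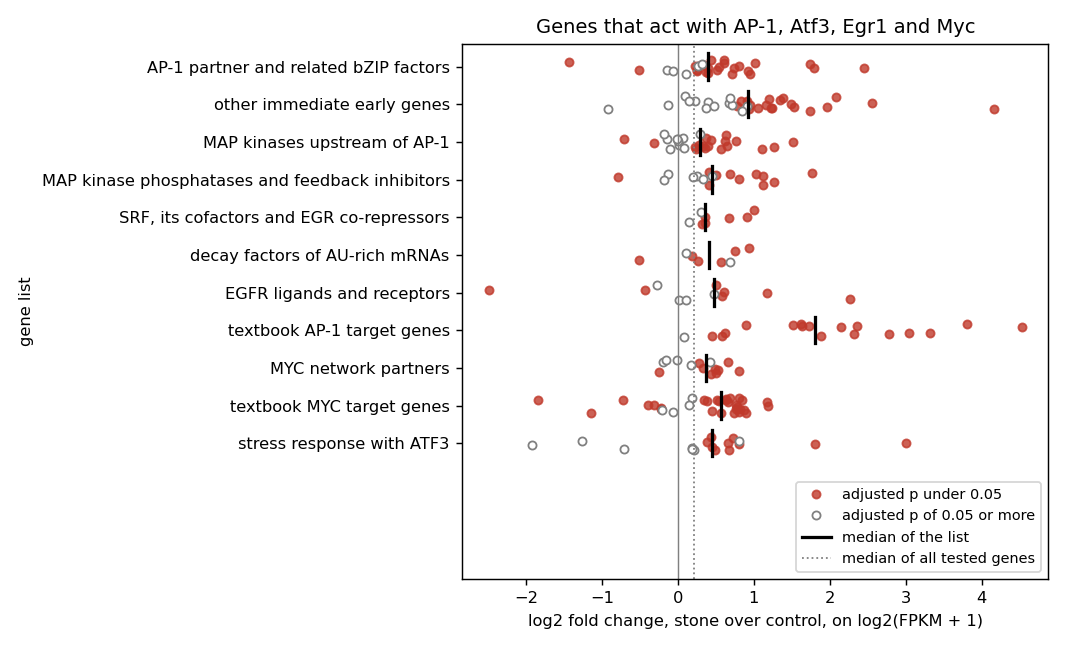
Log2 fold change, stone over control on log2(FPKM + 1), of the tested genes in 11 lists around the factor genes, which are left out themselves; filled points were called by limma, open ones were not, black lines are list medians and the dotted line is the median of all tested genes at 0.21. The AP-1 target list has a median of 1.8, and the MAP kinase list, at 0.29, lies close to all genes.

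The genes with patterns most like those of Fos, Egr1, Atf3 and Myc included other factor genes and members of the lists above, while Uso1, Emd, Txnip, Per1 and Dkc1 stood in none of them. By the correlation of deviations from group means over 6 samples, among 9018 genes averaging 5 FPKM or more, the genes closest to Fos were Uso1, Btg2, Ier3 and Junb (r of 0.996 or more). Closest to Egr1 were Gdf15, Ier2, Atf3 and Emd, and closest to Atf3 were Egr1, Btg2, Junb and Emd. Myc was matched by Hbegf, Txnip, Per1 and Dkc1 (r = 0.997, 0.996, 0.992 and 0.991). As the highest among 9018 genes over 6 samples, these r are high by selection. For the levels themselves r ran from 0.623 for Gdf15 with Egr1 to 0.997 for Per1 with Myc. Gdf15, a stress cytokine gene, had 37.24, 40.56 and 39.67 FPKM in stone samples 1 to 3, against 4.44, 12.44 and 19.53 FPKM in control samples 1 to 3 (log2 fold change 1.81, limma adjusted p = 0.00943). Uso1 spread over only 0.23 on the log2 scale among controls, so a like pattern was no sign of a like size.

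RNA of cell type markers differed between the groups, which does not by itself give a change in numbers of cells. Over all tested genes 43.5% were called higher and 13.9% lower. The summed FPKM of 10 macrophage markers was 262 to 637 in stone and 80.7 to 89.4 in control samples, and 9 of 10 were called higher. The sum of 10 injured tubule markers was 9990 to 10300 in stone and 968 to 1090 in control samples, and 10 of 10 were called higher. Fibroblast and mural cell markers summed to 177 to 296 in stone and 61.0 to 79.0 in control samples (9 of 9 higher), neutrophil markers to 20.1 to 29.9 in stone and 2.14 to 5.51 in control samples (3 of 3 tested higher), endothelial markers to 88.1 to 142 in stone and 51.7 to 90.6 in control samples (4 of 6 higher) and podocyte markers to 78.7 to 95.3 in stone and 45.0 to 64.0 in control samples (4 of 5 higher). The part of these cells in the rises of Fosl2, Myc and Fosl1 was not tested. Red blood cell markers summed to 597 to 759 in stone and 2170 to 3170 in control samples (5 of 5 lower). Proximal tubule markers summed to 10900 to 17000 in stone and 149000 to 180000 in control samples, mostly Kap (5 of 10 lower), and thick limb and distal markers to 1460 to 2290 in stone and 2190 to 2560 in control samples (4 of 6 lower). Csf3r, Krt20, Sox9, Adgre1, Itgam and Mrc1 averaged 0.123 to 0.93 FPKM in controls and entered the test only through the stone samples. Pvalb, at 0.84 FPKM in stone kidneys, entered only through the controls. The counts of their lists are thus partly set by the filter. These markers are named after their values were seen.

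The part of tissue makeup in the spread of Fos and the other immediate early genes among controls was not tested. Macrophage markers summed to 89.4, 80.7 and 88.6 FPKM in control samples 1 to 3, and injured tubule markers to 975, 1090 and 968. Endothelial markers summed to 53, 51.7 and 90.6 FPKM, red blood cell markers to 3170, 2170 and 2310, podocyte markers to 45.0, 64.0 and 59.9, and neutrophil markers to 2.14, 5.51 and 3.65. Collecting duct markers summed to 247, 266 and 626 FPKM in stone samples 1 to 3 and 231 to 254 in control samples, and platelet markers to 5.54 to 9.78 in stone and 3.01 to 4.45 in control samples. T and B cell markers were near 0, summing to 1.54 to 2.17 in stone and 2.81 to 5.11 in control samples, and none reached the level for testing.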

How the data were processed

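RNA of whole kidney was measured in 3 stone and 3 control samples. Per the submitters' processing notes, reads were aligned with HISAT2 2.0.4 to GRCm38.p6. Libraries were made with dUTP in the second cDNA strand, per the labels' protocols. For the quantifier, annotation, use of strand and denominator of the FPKM the sources name nothing. Values are FPKM, computed by the authors and deposited as a table with 1 column per sample and 0 columns of other samples. Counts were not used. Absolute depth is not stated. The value of a single fragment was estimated from short genes with a single GENCODE M21 transcript, as the median FPKM times length inside a fixed window. The window was the same for every library, so the estimate cannot compare their depth. Fragments behind a value rest on it and are approximate.

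Genes averaging 1 FPKM or more (12319) were tested on log2(FPKM + 1) with limma 3.58.1 in R 4.3.3 (eBayes with trend, two-sided), with Benjamini-Hochberg adjustment over all tested genes. The fit was tested on simulated data. The labels do not say that samples came from separate mice, so p-values measure the spread between samples, which may be technical. An exact permutation test of 3 against 3 samples cannot go below 0.1. The genes, lists and rules were chosen with earlier results of these data known. Named are the 10 factor genes, up to 2 called genes per direction and list with the smallest p, and the 4 genes most like Fos, Egr1, Atf3 and Myc in pattern. Any other gene is said to be picked after its values were seen, or serves as a check of samples and tissue. Promoters are from RefSeq on GRCm38.p6, and 7 of the 10 genes were matched (Egr1, Fosl1 and Myc are named only). Alternatives were other scalings, pseudocounts, filters, variance models, a replicate block and leaving out each sample.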

Additional observations from a re-analysis of the deposited data

How the results depend on the processing

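With 3 samples a group, leaving out 1 control library turned the sign of Fos, Jun, Junb, Atf3 and Egr1 but not of Fosb, and absolute depth limits the lowest values. Over 18 alternatives Fosl2 and Myc stayed called higher. Against 5356 genes higher and 1711 lower as deposited, median-of-ratios scaling gave 2948 and 3064, quantile normalization 2744 and 3138, and equal FPKM sums 8440 and 797. Leaving out 1 sample gave 4265 to 5242 higher and 1360 to 1697 lower genes, 2 factor genes higher each time and 0 to 3 lower, the 3 being Fos, Fosb and Jun without control sample 1. Weights per sample called 6 factor genes higher and turned Fosb to 0.51 and Jun to 1.25. Leaving out 1 sample moved the log2 fold change of Fos between -1.30 and 1.29, Jun between -1.10 and 0.44, Junb between -0.07 and 1.76, Atf3 between -0.18 and 1.37, Egr1 between -1.08 and 1.47, Btg2 between -0.39 and 1.53, Ier2 between -0.72 and 0.72 and Txnip between -0.14 and 0.33. Median-of-ratios scaling turned Uso1 to -0.14, Ier2 to -0.13 and Txnip to -0.14, quantile normalization turned Uso1 to -0.07 and Ier2 to -0.10, and equal FPKM sums turned Jun to 0.12 and Mlx to 0.02. The cause of these changes was not tested. Of the other comparisons of factor genes with alternatives, 145 kept direction and side of the threshold and 8 became called. Weights by group were chosen after seeing the data. Replicate numbers do not pair the samples: deviations of equally numbered samples correlated at 0.0075, -0.22 and -0.0397, and not every sample correlated best with its own number. A replicate block gave 4861 genes higher and 1517 lower, with Jund called at 0.33 (limma, adjusted p = 0.0399) and the call of Braf lost at -0.31.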
